A study of Mus musculus with 19 samples.

Results

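Chromatin accessibility was compared between Foxc1 mutant forebrain progenitors from embryos with and without a retinoic acid diet. The comparison took the 6 libraries titled Mutant+RAdiet and the 4 titled Foxc1Mutant, 10 of the 19 libraries of the series. They were chosen by their titles alone. Each library is a bulk ATAC-seq library, in which a transposase cuts open DNA, made from Prom1-positive cells pulled out of mouse forebrain with magnetic beads at embryonic day 14. The Mutant+RAdiet libraries are labelled Foxc1 hith/LacZ and RA diet. The Foxc1Mutant libraries are labelled no diet, and 3 of the 4 are labelled Foxc1 hith/LacZ. Foxc1Mutant 1 carries the genotype label Foxc1 WT, against its title, so the main counts and comparisons are also given without it. The labels give neither the dose and timing of the diet nor the number of embryos behind a library, so the tests weigh only how far these libraries differ among themselves, which may be technical. By their titles both groups are Foxc1 mutants, so the comparison cannot show what the mutation did, and no value here checks the genotype of Foxc1Mutant 1.

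Foxc1 is a forkhead transcription factor that the mesenchyme of the meninges needs. The hith allele is hypomorphic and the LacZ allele is an insertion. The meninges make retinoic acid from vitamin A with retinaldehyde dehydrogenases such as Aldh1a2. Retinoic acid binds nuclear receptors (Rara, Rarb, Rarg) that pair with Rxr partners on response elements, often direct repeats of a short motif, and Cyp26 enzymes degrade it. Prom1 is a membrane protein of neural stem and radial glial cells, the dividing cells that line the ventricle. Sox2 and Notch signalling keep these cells undifferentiated, and the series asks how meningeal retinoic acid acts on both. A diet that supplies retinoic acid to mutant embryos addresses that question directly.

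The authors' files list peak summits per library, each with a score, the -log10 q of the peak caller. Sequencing depth is unknown. The Mutant+RAdiet libraries held 87470, 83640, 81221, 29112, 52848 and 48323 deposited summits, against 108298, 115007, 108407 and 49804 in the Foxc1Mutant libraries. The means were 63769 ± 23749 in Mutant+RAdiet and 95379 ± 30545 in Foxc1Mutant libraries (SD, n = 6 and 4), and they did not differ past the threshold (difference -31610, two-sided exact permutation p = 0.114). Without Foxc1Mutant 4 the difference was -46802 (exact permutation p = 0.0238), and without Foxc1Mutant 1 it was -27304 (exact permutation p = 0.238). Every comparison below therefore used equally long lists, the 29112 best-scored summits of each library, called matched summits. At the last matched summit the score was 1.3 to 22.2 in Mutant+RAdiet libraries and 5.42 to 50.9 in Foxc1Mutant libraries, so the same rank stands for different scores in different libraries.

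**Figure D1:**
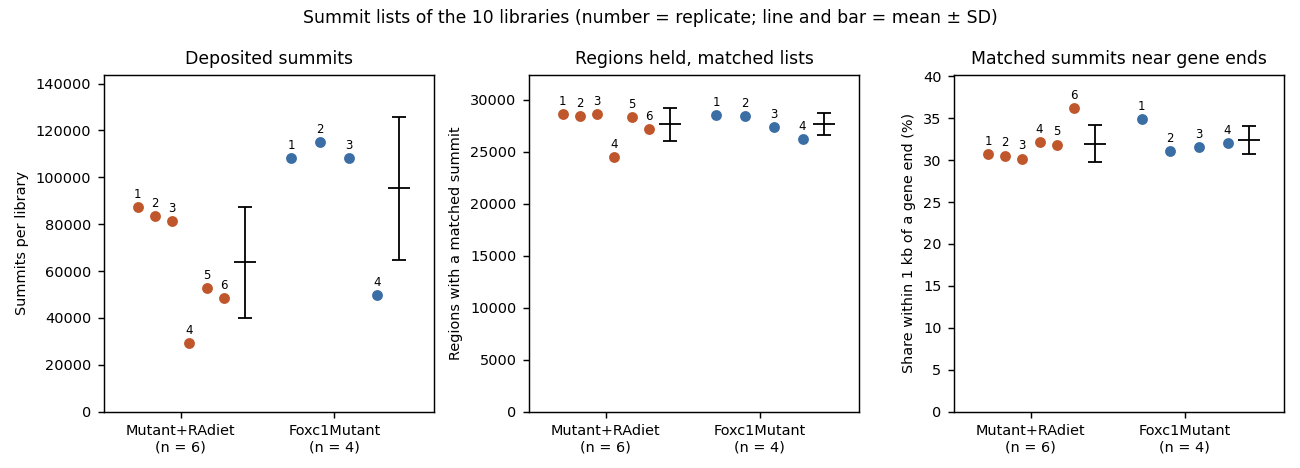
Deposited summits (left), regions with a matched summit (middle) and the share of matched summits within 1 kb of a gene end in percent (right), for 6 Mutant+RAdiet and 4 Foxc1Mutant libraries. Points are libraries with their replicate numbers, and the line and bar beside them are the mean and SD. The summit totals spread widely within both groups, and the other panels show Mutant+RAdiet 4 with the fewest regions (24525) and Mutant+RAdiet 6 with the highest share near gene ends (36.2%).

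Neither group was internally uniform. The share of regions common to a pair of libraries, out of the regions held by either, had a median of 65.3% within Mutant+RAdiet libraries (59.7% to 77.8%, 15 pairs) and 61.0% within Foxc1Mutant libraries (58.7% to 78.4%, 6 pairs). Between the groups it was 65.6% (57.5% to 75.7%, 24 pairs). The range across the diet overlapped both ranges within a group. Foxc1Mutant 1 and 2 shared 78.4%, and Foxc1Mutant 3 and 4 shared 68.3%, while pairs across these sets shared 58.7% to 61.3%. Mutant+RAdiet 6 shared 75.7% with Foxc1Mutant 1 and at most 67.5% with any other Mutant+RAdiet library. Whether this mixture has a technical source was not tested, because the labels name no preparation batch.

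Markers of the sorted cells were checked by summits within 1 kb of a gene end. Of all 21887 protein-coding genes, 30.4% had one in all 10 libraries. So did 5 of 10 neural progenitor markers, namely Sox2, Sox1, Vim, Fabp7 and Emx2. None of 9 meningeal fibroblast markers, 4 microglial markers or 5 erythroid markers did, and 1 of 6 endothelial (Kdr) and 1 of 4 mural markers (Tbx18) did. Summed matched summits were counted more widely, as those nearest to a gene and within 100 kb of a gene end. Those of the meningeal list ranged from 12 to 14 in Mutant+RAdiet libraries and from 9 to 13 in Foxc1Mutant libraries. Those of the endothelial list ranged from 7 to 8 in Mutant+RAdiet libraries and from 5 to 9 in Foxc1Mutant libraries. The mural list summed to 1 to 4 in Mutant+RAdiet libraries and 1 to 3 in Foxc1Mutant libraries, the microglial list to 2 to 4 in both, and the erythroid list to 1 to 2 in both. Prom1 itself, the sorted protein, had 1, 1, 1, 2, 1 and 1 summits in Mutant+RAdiet libraries and 1 in each Foxc1Mutant library. In bulk libraries a changed mixture of cells and changed accessibility per cell cannot be told apart.

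No difference between the groups in the distance of summits from genes was detected past the spread between libraries. On average 31.9% ± 2.23 of matched summits in Mutant+RAdiet libraries and 32.4% ± 1.68 in Foxc1Mutant libraries were at most 1 kb from a gene end (SD, n = 6 and 4; exact permutation p = 0.733). Beyond 100 kb lay 18.3% ± 2.13 in Mutant+RAdiet and 18.6% ± 2.91 in Foxc1Mutant libraries (exact permutation p = 0.829). All 4 distance classes had an adjusted p of 0.829. Without Foxc1Mutant 1 the difference within 1 kb was 0.39 percentage points in place of -0.43, a turn of sign (exact permutation p = 0.881), and that beyond 100 kb was -1.53 in place of -0.34 (exact permutation p = 0.369).

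Matched summits of the 10 libraries that lay at most 200 bp apart were chained into regions, and a region was counted where at least 2 libraries held a summit in it. There were 40764 regions. All 10 libraries held 13522 of them (33.2%), and 47.0% of these were no more than 1 kb from a gene end, while only 18.4% of the other 27242 were so close. Shared regions thus lay near gene ends more often than variable ones. No region passed a two-sided Fisher's exact test on library counts after adjustment over all regions (0 of 40764, 0%). At an unadjusted p under 0.05 there were 542 regions (1.33%), of which 252 were held by more Mutant+RAdiet libraries (0.618%) and 290 by fewer (0.711%). The smallest p that 6 against 4 libraries can give is 0.00476, and too few regions reached it for any to pass the adjustment.

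**Figure D2:**
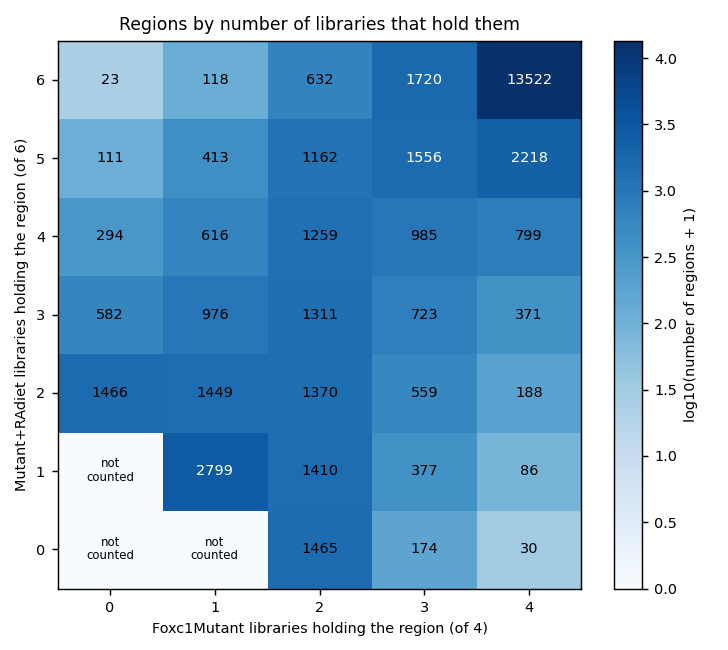
Number of regions by how many of 6 Mutant+RAdiet libraries (vertical axis) and of 4 Foxc1Mutant libraries (horizontal axis) hold them, with colour on a log10 scale. Regions pile up in the corner held by all 10 libraries (13522), and the opposite corners hold 23 and 30.

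Complete separation was rare. In all, 23 regions were held by all 6 Mutant+RAdiet libraries and by 0 of 4 Foxc1Mutant libraries (0.0564%), and 30 by 0 of 6 Mutant+RAdiet and all 4 Foxc1Mutant libraries (0.0736%). Next to those limits, 118 regions were held by 6 Mutant+RAdiet and 1 Foxc1Mutant library, and 111 by 5 Mutant+RAdiet and 0 Foxc1Mutant libraries. On the other side, 86 were held by 1 Mutant+RAdiet and 4 Foxc1Mutant libraries, and 174 by 0 Mutant+RAdiet and 3 Foxc1Mutant libraries. Of the regions seen only with the diet 16 of 23 lay inside a gene, against 10 of 30 of those seen only without it and 49.4% of all 40764 regions. Near a gene end, by the same limit of 1 kb, were 1 of 23 and 3 of 30, and 27.9% of all regions.

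At most of these sites, libraries of the other group had a deposited summit that ranked lower. Among the 92 pairs of a diet-only region and a Foxc1Mutant library, 72 (78.3%) had a deposited summit below the matched limit at that place. Among the 180 pairs of a region seen only without the diet and a Mutant+RAdiet library, 100 (55.6%) did. Mutant+RAdiet 4, whose whole list is the matched list, cannot hold such a summit. Longer lists can hold more of them, and the same share over all regions that a library lacks was not taken. With all deposited summits in use, 4 regions were separated toward the diet and 282 away from it, with mean lists of 63769 summits in Mutant+RAdiet and 95379 in Foxc1Mutant libraries. Leaving out a library relaxes the criterion, and the counts reached 90 and 54 without Mutant+RAdiet 6 and 85 and 104 without Foxc1Mutant 3. Without Foxc1Mutant 1, the library with the conflicting label, they were 43 and 58, and 0 regions passed the adjusted Fisher's test. With fewer libraries the smallest possible p is larger, so that test could hardly call a region. The counts toward the diet also passed 1.5 times the value from all 10 libraries without Mutant+RAdiet 4 (45) and Foxc1Mutant 2 and 4 (40 and 41). Those away from it did so without Mutant+RAdiet 1 (48) and Foxc1Mutant 2 and 4 (65 and 69).

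**Figure D3:**
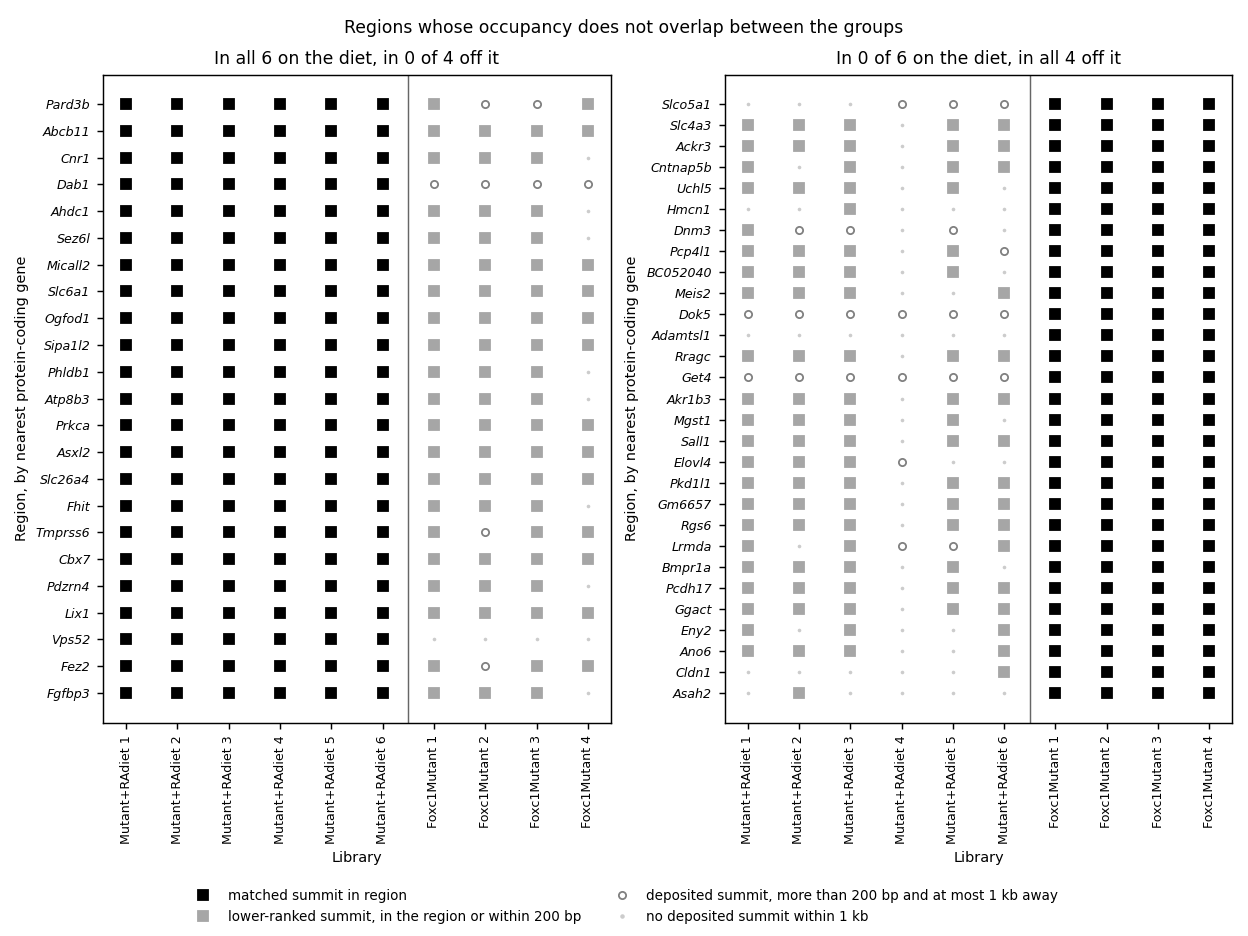
The 23 regions held in all 6 Mutant+RAdiet libraries only (left) and 29 of the 30 held in all 4 Foxc1Mutant libraries only (right), one row per region by nearest protein-coding gene and one column per library. Black squares are matched summits, grey squares lower-ranked summits at the same place, circles other deposited summits within 1 kb, and dots none. Grey squares fill 72 of 92 open cells on the left and 95 of 174 on the right.

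Only 2 diet-only regions had no deposited summit of any rank at the place itself in Foxc1Mutant libraries. For 4 regions seen only without the diet the same held in Mutant+RAdiet libraries. With summits within 1 kb also counted, only 1 diet-only region and 1 region seen only without the diet had none in the lacking libraries. The diet-only one with none within 1 kb was a promoter. It lay at chr17:33981327-33981428 (mm10), at the start of the long noncoding RNA gene AA388235, 14339 bp from the nearest protein-coding gene end (Vps52, a subunit of an endosome tethering complex). Its summits ranked 10803, 19871, 13101, 17597, 11359 and 15105 in Mutant+RAdiet libraries. None of the 4 Foxc1Mutant lists held a summit within 1 kb of it. Among the study's control embryos it was held by 4 of 5 libraries on the diet and 1 of 4 off it. The counterpart was a region inside Adamtsl1, a secreted matrix protein gene, at chr4:85801971-85802027. None of the 6 Mutant+RAdiet lists held a summit within 1 kb of it, and it ranked 26845, 26507, 17598 and 12682 in Foxc1Mutant libraries.

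At some separated regions every lacking library had a matched summit within 1 kb. The regions at Dab1, Get4 and Dok5 are such cases, and they are among those above without a deposited summit at the place itself. Inside the gene of Dab1, the adaptor through which reelin guides migrating neurons, matched summits lay at chr4:104270308-104270364 in all 6 Mutant+RAdiet libraries. In the 4 Foxc1Mutant libraries the nearest matched summit lay at positions 104269603, 104269603, 104269523 and 104269665. Every library thus had a matched summit within 1 kb of the region, at another position in the Foxc1Mutant libraries. At Get4, which codes for a factor that inserts proteins into membranes, all 4 Foxc1Mutant libraries and 0 of 6 Mutant+RAdiet libraries held chr5:139252656-139252705. The neighbouring region chr5:139252142-139252327, at the gene's start, was held by all 6 Mutant+RAdiet and 1 of 4 Foxc1Mutant libraries, which thus held both. Inside Dok5, which codes for a docking protein of receptor tyrosine kinases, chr2:170757471-170757519 was held by 0 of 6 Mutant+RAdiet and all 4 Foxc1Mutant libraries. There chr2:170758323-170758418 was held by all 6 Mutant+RAdiet and 2 of 4 Foxc1Mutant libraries, and these 2 held both. In 1 diet-only region and 2 regions seen only without the diet, every library lacking the region had a matched summit within 1 kb.

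Some separated regions had a nearest gene on the gene lists used here. The diet-only one lay 6689 bp from Fgfbp3, which codes for a secreted FGF-binding protein, at chr19:36910811-36910912. Its ranks were 19427, 28858, 14834, 16641, 23612 and 28025 in Mutant+RAdiet libraries. Foxc1Mutant 1, 2 and 3 had summits there below the matched limit, at ranks 39833, 54792 and 30810, and Foxc1Mutant 4 had none. Unlike AA388235, it was held by 0 of 5 control libraries on the diet and 0 of 4 off it. The region near Meis2, a homeobox gene that retinoic acid induces in several tissues, lay at chr2:115852833-115852937. It ranked 18225, 26245, 24877 and 17985 in Foxc1Mutant libraries and below the matched limit or absent in all 6 Mutant+RAdiet libraries, where 4 had a lower-ranked summit. Meis2 has many sites, and the other 16 of its 17 regions were not separated. The region inside Bmpr1a, a type I BMP receptor gene, lay at chr14:34453901-34454042 and was lower-ranked in 4 of 6 Mutant+RAdiet libraries. All 5 control libraries on the diet and all 4 off it held it.

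The remaining regions named by rank were near genes outside the lists. Toward the diet they lay near Sipa1l2 (chr8:125465336-125465547), Tmprss6 (chr15:78447846-78448075) and Fez2 (chr17:78358350-78358497). Away from it they lay near Pkd1l1 (chr11:8807172-8807217) and Asah2 (chr19:31972233-31972239). In these 5 loci, between 1 and 5 libraries of the lacking group still had a lower-ranked summit.

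By group means, the separated regions leaned the same way in control libraries. The 23 diet-only regions were held at a mean of 73.0% in the 5 control libraries on the diet and 34.8% in the 4 off it. The 30 regions seen only without the diet were held at 30.0% in control libraries on the diet and 55.0% in those off it. Single libraries varied: Control 1, off the diet, held 14 of the 23 diet-only regions, and Control 3 held 3. Of the 30 regions seen only without the diet, Control 1 and 2 held 12 and 13, and Control 3 and 4 held 20 and 21. Control libraries on the diet held 8 to 10 of them. No control library took part in choosing the regions, and the difference was not tested. The share of all regions was not taken in the control libraries, so a general difference between the control groups was not tested either. The part of list length in this difference was not tested.

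Promoters were also scored directly, as windows from 250 bp upstream to 50 bp downstream of gene starts in RefSeq (GRCm38.p6). Of 32851 windows, 9793 held a matched summit in at least 2 of the 10 libraries and 4506 in all 10. Mutant+RAdiet libraries held a median of 7679 windows (7165 to 8525) and Foxc1Mutant libraries 7741 (7181 to 8481; exact permutation p = 0.876 for the means). No window passed Fisher's exact test after adjustment, and 69 had an unadjusted p under 0.05. As for regions, the smallest possible p left the adjusted test little room to call a window. Complete separation toward the diet was seen in 3 windows (0.0306%), those of AA388235, Atp8b3 and Gm27197, and away from it in 1 (0.0102%), that of Pcp4l1. At Gm27197 the summits of Foxc1Mutant libraries lay just outside the window, so that window is a matter of its edge. Without Foxc1Mutant 1, an alternative added after seeing the data for these windows, 7 were separated toward the diet and 6 away from it, and 0 passed the adjusted Fisher's test (70 had an unadjusted p under 0.05).

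The promoters of AA388235 (chr17:33981242-33981541, plus strand), Atp8b3 (chr10:80539075-80539374, minus strand) and Pcp4l1 (chr1:171196219-171196518, minus strand) are shown because their occupancy did not overlap between the groups. Atp8b3 codes for a phospholipid flippase, and Pcp4l1 for a relative of the calmodulin-binding protein Pcp4. Each sequence is written 5′ to 3′ on the gene's strand. Capitals mark the stretch that spans the matched summits of the 10 libraries.
AA388235: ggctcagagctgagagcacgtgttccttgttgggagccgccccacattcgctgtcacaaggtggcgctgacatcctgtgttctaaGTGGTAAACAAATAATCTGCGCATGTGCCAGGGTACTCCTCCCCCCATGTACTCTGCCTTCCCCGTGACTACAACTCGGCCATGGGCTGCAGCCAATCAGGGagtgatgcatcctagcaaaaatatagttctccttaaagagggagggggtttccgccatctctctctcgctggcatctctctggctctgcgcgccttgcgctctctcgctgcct
Atp8b3: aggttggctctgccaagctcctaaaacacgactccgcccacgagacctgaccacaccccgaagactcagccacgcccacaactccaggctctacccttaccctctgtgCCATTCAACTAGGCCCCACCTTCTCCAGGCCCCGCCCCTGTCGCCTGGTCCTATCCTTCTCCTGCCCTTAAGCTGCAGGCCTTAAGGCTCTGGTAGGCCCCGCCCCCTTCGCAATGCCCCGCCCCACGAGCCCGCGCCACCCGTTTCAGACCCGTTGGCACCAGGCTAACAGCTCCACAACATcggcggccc
Pcp4l1: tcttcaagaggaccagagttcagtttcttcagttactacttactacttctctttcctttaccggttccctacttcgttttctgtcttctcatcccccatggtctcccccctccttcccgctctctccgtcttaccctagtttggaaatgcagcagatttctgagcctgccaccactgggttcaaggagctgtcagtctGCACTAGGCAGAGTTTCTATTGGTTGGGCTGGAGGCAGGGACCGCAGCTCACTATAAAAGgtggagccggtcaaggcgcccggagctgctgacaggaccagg
At Atp8b3, Foxc1Mutant 1, 2 and 3 had summits at ranks 29411, 40473 and 42327, the first of them just under the matched limit. At Pcp4l1, 4 of 6 Mutant+RAdiet libraries had lower-ranked summits, the best at rank 29798, while the Foxc1Mutant libraries ranked it 23037, 22705, 24227 and 28874. Both are therefore differences of rank. None of the 3 windows holds the exact retinoic acid receptor motif AGGTCA on either strand, which 16.3% of all 32851 windows hold. The Rarb and Cyp26a1 windows below, which carry a response element, hold no exact AGGTCA either. The search therefore cannot show that variants of the motif are absent.

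A pair of promoters that carry a classical retinoic acid response element served as a direct look at receptor targets. Rarb, a receptor gene that retinoic acid switches on, and Cyp26a1, a retinoic acid-degrading enzyme gene, hold a degenerate direct repeat of that motif with the DR5 spacing. The 32 windows with such an element are 0.0974% of all windows, and 3 of the 9793 accessible windows hold one (0.0306%). Capitals mark the element, in Rarb at chr14:16575427-16575726 (minus strand) and in Cyp26a1 at chr19:37697558-37697857 (plus strand).
Rarb: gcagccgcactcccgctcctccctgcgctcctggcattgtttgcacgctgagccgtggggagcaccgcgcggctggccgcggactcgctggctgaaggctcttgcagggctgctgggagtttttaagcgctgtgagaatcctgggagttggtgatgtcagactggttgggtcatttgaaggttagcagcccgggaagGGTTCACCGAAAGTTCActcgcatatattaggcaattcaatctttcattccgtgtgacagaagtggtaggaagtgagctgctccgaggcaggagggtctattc
Cyp26a1: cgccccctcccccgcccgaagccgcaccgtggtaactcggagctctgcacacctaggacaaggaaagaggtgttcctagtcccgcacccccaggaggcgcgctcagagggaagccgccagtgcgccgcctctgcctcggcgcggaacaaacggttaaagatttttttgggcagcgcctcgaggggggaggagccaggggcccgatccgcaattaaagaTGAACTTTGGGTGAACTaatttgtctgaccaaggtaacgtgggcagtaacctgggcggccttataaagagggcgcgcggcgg
The Rarb window held a matched summit in 5 of 6 Mutant+RAdiet libraries, at ranks of 24074, 19261, 15063, 15627 and 16911, while Mutant+RAdiet 4 had no summit there. All 4 Foxc1Mutant libraries held it, at ranks of 16230, 24236, 12744 and 12692. The ranks of the groups overlap. The Cyp26a1 window had no deposited summit in any of the 10 libraries. Neither window thus held summits with the diet and none without it. A summit in the window does not show binding at the element.

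Genes were then compared by the number of matched summits nearest to them, within 100 kb of a gene end. Of 10868 genes that averaged 1 summit or more, 3546 had the same count in all 10 libraries and 7322 were tested with limma on log2(summits + 0.5). No gene passed the adjusted threshold of 0.05 (0 of 7322, 0%; lowest adjusted p 0.629), and no gene did by the exact permutation test with the same adjustment. The smallest p of that permutation test is 0.00476, so after adjustment over all genes it could hardly call any. At an unadjusted limma p under 0.05 there were 431 genes (5.89%), of which 247 had more summits with the diet (3.37%) and 184 fewer (2.51%). The median log2 difference over all genes was 0.02. Without Foxc1Mutant 1 the count of adjusted calls was also 0. Counts did not overlap between the groups for 9 genes that were higher in Mutant+RAdiet libraries (0.123%) and 11 that were lower (0.15%).

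The named genes with more summits in Mutant+RAdiet libraries were led by Psapl1 (chr5:36204021-36206568), a relative of the lysosomal protein prosaposin. Psapl1 had 5, 4, 5, 4, 3 and 3 summits in Mutant+RAdiet libraries and 2 in each Foxc1Mutant library. Its log2 difference was 0.82 (SE 0.173, limma adjusted p = 0.629), higher in all 6 libraries. One of its 5 regions, chr5:36142069-36142142, was held by 5 of 6 Mutant+RAdiet and 0 of 4 Foxc1Mutant libraries. Fgfbp3 had 2 summits in each Mutant+RAdiet library and 1 in each Foxc1Mutant library (log2 difference 0.74, SE 0.172, limma adjusted p = 0.629). The extra summit is the separated region above. At the Fgfbp3 gene end every library had 1 summit, in 1 of 2 neighbouring regions.

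The others with non-overlapping counts toward the diet differed by about 1 to 2 summits. Nkx1-1, a homeobox gene, averaged 2.17 ± 0.408 summits in Mutant+RAdiet libraries and 1.00 ± 0 in Foxc1Mutant libraries (SD, n = 6 and 4). Btc, the EGF-family ligand betacellulin, averaged 2.17 ± 0.408 in Mutant+RAdiet and 0.750 ± 0.50 in Foxc1Mutant libraries. Ythdf1, a reader of methylated adenosine in mRNA, averaged 4.33 ± 0.516 in Mutant+RAdiet and 2.75 ± 0.50 in Foxc1Mutant libraries. Their log2 differences were 0.82, 1.21 and 0.58. Tmem132c (0.42), Fez2 (0.67), Sntb2 (0.48), which codes for a syntrophin, and Xpo4 (0.49), which codes for an exportin, complete the set. None passed the adjusted threshold.

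Genes with fewer summits in Mutant+RAdiet libraries were led by Fgfrl1, an FGF receptor relative without a kinase, with 1 summit in each Mutant+RAdiet library and 2 in each Foxc1Mutant library. Its log2 difference was -0.74 (SE 0.170, limma adjusted p = 0.629), and R3hdm2 had the same counts. At both genes the extra summits lay at different sites. At Fgfrl1, Foxc1Mutant 1 and 2 held chr5:108714312-108714318, and Foxc1Mutant 3 and 4 held chr5:108695125-108695141. At R3hdm2, Foxc1Mutant 1 and 2 held chr10:127427108, and Foxc1Mutant 3 and 4 held chr10:127381159-127381243. Each of these regions was thus held by only 2 of 4 Foxc1Mutant libraries. Ralgapa2 (chr2:146239876-146512254), a subunit of a complex that switches off Ral GTPases, had 11, 11, 11, 10, 12 and 10 summits in Mutant+RAdiet libraries and 15, 15, 13 and 16 in Foxc1Mutant libraries. Its log2 difference was -0.43 (SE 0.101, limma adjusted p = 0.629). It has 16 regions, and all 10 libraries held 8 of them. At 2 more, chr2:146300306-146300323 and chr2:146310399-146310445, 0 of 6 Mutant+RAdiet and 3 of 4 Foxc1Mutant libraries had a summit. The lower count at Ralgapa2 was thus spread over several sites inside the gene.

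Bcl11a, a zinc finger transcription factor of cortical projection neurons, had 5, 5, 4, 6, 5 and 6 summits in Mutant+RAdiet libraries and 7 in each Foxc1Mutant library (log2 difference -0.42, SE 0.134, limma adjusted p = 0.674). A region 64096 bp from its end, chr11:24012413-24012523, was held by 0 of 6 Mutant+RAdiet and 3 of 4 Foxc1Mutant libraries. Itpr1, the calcium channel of the endoplasmic reticulum, averaged 4.5 ± 0.548 summits in Mutant+RAdiet libraries and 6.5 ± 0.577 in Foxc1Mutant libraries (SD, n = 6 and 4; log2 difference -0.49). Adcy2, an adenylyl cyclase gene, differed by -0.73, Etaa1, an activator of the replication stress kinase ATR, by -0.49, and Asah2, a ceramidase gene, by -1.0. Ift57, which codes for a protein of transport along cilia, differed by -0.52 and Nhsl1 by -0.27.

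For Fgfbp3, Xpo4, Etaa1, R3hdm2 and Fgfrl1 the counts had no spread within either group, so their SE comes wholly from the spread of other genes. With the genes alike in all libraries kept in the fit, these 5 and Nkx1-1 passed the adjusted threshold. In all 19 libraries with 1 shared spread, Fgfbp3 passed (adjusted p = 0.0041). With all deposited summits, the sign of the difference turned for all 9 genes that were higher with the diet, and their values stand with the alternatives below.

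**Figure D4:**
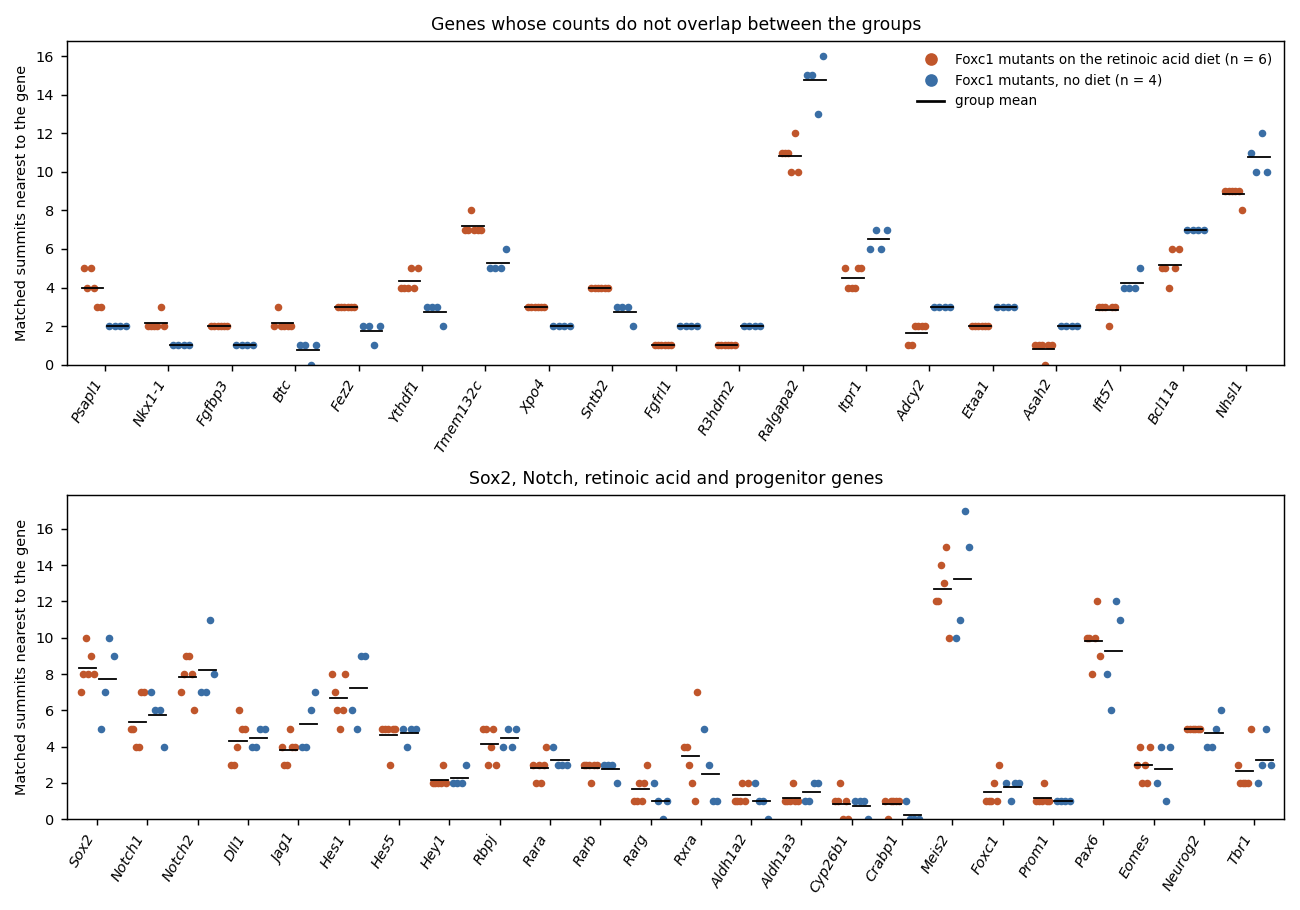
Matched summits nearest to each gene in 6 Mutant+RAdiet libraries (orange, left of each pair) and 4 Foxc1Mutant libraries (blue, right), with group means as lines. The upper panel holds the named genes whose counts do not overlap, from Psapl1 to Nhsl1, and the lower panel the Sox2, Notch, retinoic acid and progenitor genes, where the groups overlap.

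The genes that the study is about showed no difference past the test. Sox2 (chr3:34649995-34652461) had 7, 8, 10, 8, 9 and 8 summits in Mutant+RAdiet libraries and 5, 7, 10 and 9 in Foxc1Mutant libraries. Its log2 difference was 0.13 (SE 0.171, limma adjusted p = 0.836), and the groups overlap. Without Foxc1Mutant 1 it was -0.05 (limma adjusted p = 0.890). Of its 13 regions, all 10 libraries held 1, chr3:34642582-34642773, 7318 bp from the gene. The Sox2 promoter window was held by 5 of 6 Mutant+RAdiet and all 4 Foxc1Mutant libraries. The distal region chr3:34668029-34668084 had the most uneven occupancy toward the diet at this locus, 5 of 6 Mutant+RAdiet against 1 of 4 Foxc1Mutant libraries (Fisher's exact p = 0.190). The lowest p at the locus went the other way. There chr3:34578423-34578448 was held by 0 of 6 Mutant+RAdiet and 2 of 4 Foxc1Mutant libraries (Fisher's exact p = 0.133).

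Among Notch ligands, Jag1 (chr2:137081451-137116520) had 4, 3, 3, 5, 4 and 4 summits in Mutant+RAdiet libraries and 4, 4, 6 and 7 in Foxc1Mutant libraries. Its log2 difference was -0.39 (SE 0.191, limma adjusted p = 0.734), with overlapping groups. Beside its start, chr2:137117488-137117587 was held by 1 of 6 Mutant+RAdiet and all 4 Foxc1Mutant libraries (Fisher's exact p = 0.0476). The adjacent chr2:137116939-137117212 was held by 3 of 6 Mutant+RAdiet and 0 of 4 Foxc1Mutant libraries. Dll1, the other ligand named, averaged 4.33 ± 1.21 summits in Mutant+RAdiet libraries and 4.50 ± 0.577 in Foxc1Mutant libraries (SD, n = 6 and 4).

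Among receptors and effectors, Notch1 had 5, 5, 4, 4, 7 and 7 summits in Mutant+RAdiet libraries and 7, 6, 6 and 4 in Foxc1Mutant libraries (log2 difference -0.11, limma adjusted p = 0.877). Notch2 differed by -0.06 and Rbpj, the DNA-binding partner of cleaved Notch, by -0.12. The target Hes1 had 8, 7, 6, 5, 6 and 8 summits in Mutant+RAdiet libraries and 6, 5, 9 and 9 in Foxc1Mutant libraries (log2 difference -0.09, limma adjusted p = 0.877). All 10 libraries held 4 of the 9 Hes1 regions, among them the one at its start, chr16:30065178-30065352. The targets Hes5 and Hey1 each differed by -0.04. Over the Notch list of 32 genes, 23 were tested, 9 with more and 14 with fewer summits in Mutant+RAdiet libraries, and the median was -0.04. None was called, and 1 had an unadjusted p under 0.05, the endothelial ligand Dll4, with 2, 3, 3, 3, 3 and 3 summits in Mutant+RAdiet libraries and 2 in each Foxc1Mutant library.

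No tested retinoic acid gene passed the adjusted threshold either, though some differed by more than the Notch genes named above. The log2 difference was 0.66 for Rarg and 0.47 for Rxra (limma adjusted p = 0.776 and 0.813), with overlapping groups. The receptor Rara averaged 2.83 ± 0.753 summits in Mutant+RAdiet libraries and 3.25 ± 0.50 in Foxc1Mutant libraries (SD, n = 6 and 4). Rarb averaged 2.83 ± 0.408 in Mutant+RAdiet and 2.75 ± 0.50 in Foxc1Mutant libraries, and Rarg 1.67 ± 0.816 in Mutant+RAdiet and 1.00 ± 0.816 in Foxc1Mutant libraries. The Rxr partner Rxra had 4, 4, 3, 2, 1 and 7 summits in Mutant+RAdiet libraries and 5, 3, 1 and 1 in Foxc1Mutant libraries, the widest spread of these genes. The synthesis genes Aldh1a2 and Aldh1a3 differed by 0.46 and -0.25, with limma adjusted p-values of 0.813 each. Cyp26b1, the degrading enzyme, and Crabp1, a cellular retinoic acid-binding protein, averaged under 1 summit and were not tested. Of 31 genes on the retinoic acid list 22 were tested, 9 with more and 13 with fewer summits with the diet, with a median of -0.10. Only Dhrs3, which reduces retinaldehyde and is itself induced by retinoic acid, had an unadjusted p under 0.05. It had 2, 2, 2, 1, 1 and 2 summits in Mutant+RAdiet libraries and 4, 3, 2 and 2 in Foxc1Mutant libraries, which overlap.

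Foxc1 had 1, 1, 1, 2, 1 and 3 summits in Mutant+RAdiet libraries and 2, 1, 2 and 2 in Foxc1Mutant libraries. These summits check no genotype, because a summit does not read the alleles. Meis2 had 12, 12, 14, 13, 15 and 10 summits in Mutant+RAdiet libraries and 10, 11, 17 and 15 in Foxc1Mutant libraries (log2 difference -0.04). Pax6, a master factor of dorsal progenitors, differed by 0.12, the intermediate progenitor factor Eomes by 0.20, the proneural factor Neurog2 by 0.08 and the deep-layer neuron factor Tbr1 by -0.26. Their groups all overlap.

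Across the gene lists, the share of members with an unadjusted p under 0.05 ran between 0% and 16.7% against 5.89% of all genes tested, and no list gene was called. The radial glia list had 27 genes tested, 11 with more and 16 with fewer summits, and a median of -0.04. The intermediate progenitor list had 0 of 17 under 0.05 (median -0.06) and the projection neuron list 2 of 23 (median -0.07), Mef2c with -0.31 and Cux1 with 1.06, in opposite directions.

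Among signalling lists, the Wnt and BMP list had 3 of 25 under 0.05 and a median of 0.06. Bmpr1a had 1, 1, 1, 1, 2 and 1 summits in Mutant+RAdiet libraries and 3, 2, 2 and 3 in Foxc1Mutant libraries (log2 difference -0.86, SE 0.222, limma adjusted p = 0.674). The BMP target Id1 and the Wnt effector Tcf7l2 differed by 0.59 and 0.25, the other way from the receptor. The hedgehog list had 2 of 13 under 0.05, Boc, a co-receptor, with -0.38 and Hhip, an antagonist that binds the ligand, with 0.47. The FGF list had 1 of 15, Fgfbp3. Olig2, an oligodendrocyte lineage factor on the ganglionic eminence and gliogenesis lists, had 1, 0, 0, 1, 2 and 2 summits in Mutant+RAdiet libraries and 2, 2, 2 and 3 in Foxc1Mutant libraries. Its log2 difference was -1.14 (SE 0.446, limma adjusted p = 0.734). Of the housekeeping genes tested, 1 of 6 was under 0.05, the transferrin receptor Tfrc with 0.49. Apart from Fgfbp3, these list genes were singled out after their values were seen.

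The other lists had no gene under 0.05. The cell cycle list had 17 tested genes with a median of 0.09, the list of hem and choroid plexus genes 13 with 0.12, and the chromatin remodelling list 15 with 0.06. The meningeal fibroblast list had 10 tested genes with a median of 0.11 and the endothelial list 8 with 0.11. Hox clusters are known to answer to retinoic acid in the hindbrain and spinal cord. Of the 33 Hox genes, 20 had no matched summit in any of the 10 libraries and 1 was tested. The list summed to 0 to 10 matched summits in Mutant+RAdiet libraries (median 4.5) and 2 to 7 in Foxc1Mutant libraries (median 4). The share of all genes without a matched summit was not set beside these counts.

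**Figure D5:**
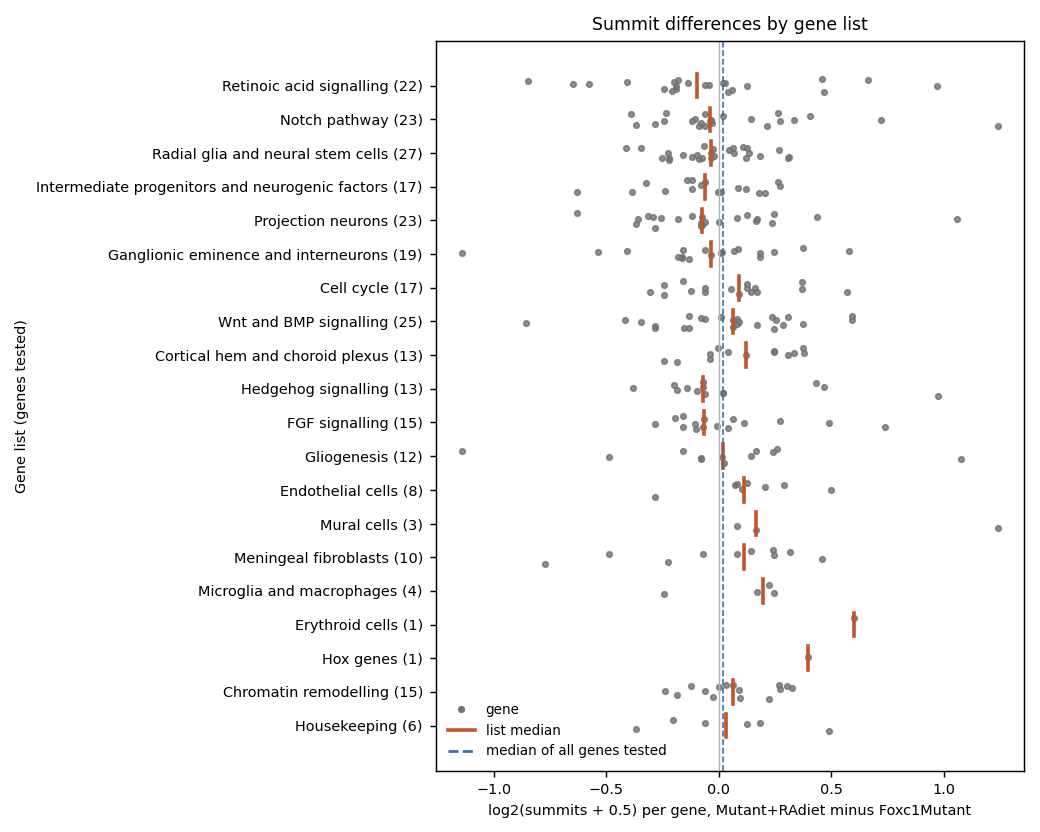
Log2 difference in summits per gene, Mutant+RAdiet minus Foxc1Mutant, on the log2(summits + 0.5) scale for the tested genes of 20 lists, with list medians in orange and the median of all 7322 genes as a dashed line at 0.02. List medians lie close to that line wherever more than 10 genes were tested, from -0.10 for retinoic acid signalling to 0.12 for the cortical hem and choroid plexus.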

How the data were processed

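The labels describe bulk ATAC-seq of 19 libraries, and 10 were compared. Per the submitters' processing notes, BWA and MACS2 were used, with Signac and DiffBind, on mm10 (GRCm38), and no versions are named. The deposited score is the -log10 q that the authors' peak caller gave each summit against its own library, listed from about 1.3 up and not scaled between libraries. Neither reads nor peak widths entered the analysis, so depth is unknown and no counting interval is given.

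From each list the 29112 best summits were kept, the length of the shortest list, and chained at 200 bp. Summits were assigned to the nearest end of 21887 protein-coding genes of RefSeq (GRCm38.p6) within 100 kb. That table gives no strand, so a gene end is either end. Regions were tested with two-sided Fisher's exact tests (scipy 1.17.1). Genes that averaged 1 summit or more were tested with limma 3.58.1 (R 4.3.3, trend and robust) on log2(summits + 0.5). Genes with the same count in all 10 libraries were left out, since they hold no information on spread. P-values were Benjamini-Hochberg adjusted over all features, with a threshold of 0.05, and single values were tested by exact permutation over 210 arrangements, two-sided, whose smallest p is 0.00476. The script was tested on simulated data.

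Named genes were those past the threshold, up to 10 a direction with the smallest limma p among genes whose counts do not overlap, the Sox2, Notch and retinoic acid genes, and genes nearest to separated regions that are on a list or rank best. Regions were matched to 20 lists of 411 genes, of which 410 were found. The members, lists and rules were chosen with earlier results of these data known. Replicate numbers did not pair the groups: correlations of same-numbered libraries ranged from -0.12 to 0.16, and 1 of 4 Foxc1Mutant libraries was most like its own number. Alternatives are given in the closing section. Some genes and regions are not reported here.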

Additional observations from a re-analysis of the deposited data

Results flagged for a closer look

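Within the 6 Mutant+RAdiet or the 4 Foxc1Mutant libraries, 47 sets of values were checked for a library far from the others. There were 5 such cases, where chance gives about 5% of sets. The shares within 1 kb and beyond 100 kb are parts of the same total, so their flags are not independent. Mutant+RAdiet 6 had 36.2% of its matched summits within 1 kb of a gene end, against 30.2% to 32.1% in the other Mutant+RAdiet libraries. It had 14.3% beyond 100 kb, against 18.0% to 20.2% in the others, and 5 summits at Tbr1, against 2 to 3. Mutant+RAdiet 4, with the shortest list, held 24525 regions, against 27220 to 28683. Foxc1Mutant 4 had 49804 deposited summits, against 108298 to 115007 in the other Foxc1Mutant libraries. Summits on the Y chromosome appeared in Mutant+RAdiet 1 (5 summits) and Mutant+RAdiet 4 (4 summits), and in 0 of 4 Foxc1Mutant libraries and 0 of the other 4 Mutant+RAdiet libraries. Without these libraries, 0 genes and 0 regions passed the adjusted tests.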

How the results depend on the processing

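No region passed the adjusted Fisher's test under any list length, chaining distance or left-out library tried. The smallest p is 0.00476 with 10 libraries and larger with fewer, so these tests could hardly call a region. Separated regions toward and away from the diet numbered 14 and 17 with lists of 14556 summits, 4 and 282 with all deposited summits, and 91 and 86 without Mutant+RAdiet 4 at 48323 summits. Leaving out 1 library gave 27 to 90 toward the diet and 40 to 104 away from it. In the 8 libraries without Y summits, chosen after seeing the data, there were 62 and 61. The difference in deposited summits ranged from -46802 to -24679 with 1 library left out.

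Gene calls stayed at 0 in each direction except in these fits. With genes alike in all libraries kept there were 3 with more and 3 with fewer summits with the diet. In all 19 libraries there was 1 with more, and with genes alike also kept (added after seeing the data) 1 with more and 1 with fewer. With the replicate block there were 14 and 9. The numbers do not pair the libraries.

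Of the named genes, the sign turned with all deposited summits for Psapl1 (-0.40), Nkx1-1 (-0.15), Fgfbp3 (-0.11), Btc (-0.66), Fez2 (-0.73), Ythdf1 (-0.44), Tmem132c (-0.54), Xpo4 (-0.36), Sntb2 (-0.17), Prom1 (-0.95), Tcf7l2 (-0.48), Dll4 (-0.24), Id1 (-0.19), Cux1 (-0.60) and Hhip (-0.68). With lists of 14556 summits it turned for Xpo4 (-0.18), Nhsl1 (0.049), Rara (1.18), Mef2c (0.037) and Dll4 (-0.25). Without Mutant+RAdiet 4 at 48323 summits it turned for Ythdf1 (-0.024), Xpo4 (-0.036), Etaa1 (0.33) and Olig2 (0.18). Within 20 kb it turned for Itpr1 (0.18) and Pls3 (0.12), and by gene body with 5 kb for Fez2 (-0.25) and Pkd1l1 (0.61). The cause was not tested. Only genes with an unadjusted p under 0.05 in either fit are listed, since others have no direction to turn.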

Other observations

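Pls3, an X-linked gene for an actin-bundling protein, was the 1 further gene whose counts did not overlap away from the diet. It had 2, 6, 6, 3, 6 and 6 summits in Mutant+RAdiet libraries and 7, 7, 7 and 8 in Foxc1Mutant libraries (log2 difference -0.63, limma adjusted p = 0.734). The low values were those of Mutant+RAdiet 1 and 4, the libraries with Y summits. Over the whole series Pls3 had 2 to 3 summits in the 7 libraries with Y summits and 6 to 8 in the 12 without.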
